A study of Homo sapiens with 16 samples.

Results

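MYC is a transcription factor that drives growth and proliferation, and MAX is the partner it needs to bind DNA. MYC and MAX bind together to E-boxes, with the letters CACGTG, and activate genes of ribosome biogenesis, metabolism and the cell cycle. The MXD proteins (MXD1, MXD3, MXD4 and MXI1) and MNT compete for MAX and the same E-boxes, where they recruit SIN3 corepressors and histone deacetylases. MGA pairs with MAX in the polycomb complex PRC1.6. MLX is a MAX-like partner of MLXIP, also known as MondoA, a sensor of glucose metabolites. The 10 genes MYC, MAX, MXD1, MXD3, MXD4, MXI1, MNT, MGA, MLX and MLXIP were taken by gene symbol from the 23396 genes in any of the authors' deposited tables. All 10 were in all 4 tables. The set was drawn up with results of these data in view. MXD4 was selected on its measured responses, since its smaller rise with Nutlin-3a after RFX7 knockdown was known then, so its values are given as a description. For the other 9 genes, tests are those over all genes of a table, and counts of members are read beside the share of all genes called.

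The libraries were made from poly(A) RNA of U2OS, a human osteosarcoma cell line with functional p53. Cells transfected with a control siRNA (siControl) or with a siRNA against the transcription factor RFX7 (siRFX7) received DMSO or Nutlin-3a at 10 µM for 24 h. Nutlin-3a keeps MDM2 from binding p53, which then accumulates. The 4 groups, siControl with DMSO, siControl with Nutlin-3a, siRFX7 with DMSO and siRFX7 with Nutlin-3a, had 4 libraries each, 16 in all. The labels do not say whether the libraries of a group came from separate cultures, so the errors measure the spread between these libraries, which may be technical, and they give neither the sequence nor the number of the siRNAs.

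The authors' deposited tables compare 2 groups each and hold no value of a single library. Errors below are therefore the authors' standard errors (SE) of a log2 fold change, and "called" means an adjusted p under 0.05 over all genes of a table. The base means, which are average normalised read counts over the libraries of a comparison, added up to between 27946376 and 35311111 per table. RFX7 was at 18.6% of its siControl level under DMSO and at 19.4% under Nutlin-3a (the authors' deposited tables), and CDKN1A, a p53 target, rose with Nutlin-3a by 3.24 in siControl and 2.98 in siRFX7 on the log2 scale. These signs were also used to set the direction of the tables. All 6 osteoblast and mesenchymal genes checked were in every table, with VIM, COL1A1 and SPARC among the most abundant and COL1A2 at base means of only 11.0 to 13.2. Among markers of epithelial, blood and endothelial cells, KRT5 and CD3E were in no table, and PTPRC, PECAM1 and CDH5 were below a base mean of 10 wherever listed. The epithelial genes EPCAM and CDH1 had base means between 121 and 214 and were called higher with siRFX7 under both treatments. Their part in the results below was not tested. Fewer cells of a type and less RNA per cell cannot be told apart in bulk RNA.

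The promoters are shown for the 3 network genes that hold an E-box near their start, since the network acts through that element. The RefSeq promoter table, on GRCh38.p14, gave 14 promoters of 300 bases for 9 of the 10 genes, all but MYC. Each runs from 250 bases before the start to 50 bases from the start onward. The E-box CACGTG, which reads the same on both strands, was in 7.26% of the 35116 promoters of the table and in those of MXD4, MNT and MLX. For MXD4 (chr4:2262060-2262359, minus strand) the whole promoter is printed. For MNT (chr17:2401221-2401280, minus strand) and MLX (chr17:42567023-42567082, plus strand) the 60 bases around the E-box are printed. Capitals mark CACGTG and, in MXD4 only, the word GTTGCTA.
MXD4: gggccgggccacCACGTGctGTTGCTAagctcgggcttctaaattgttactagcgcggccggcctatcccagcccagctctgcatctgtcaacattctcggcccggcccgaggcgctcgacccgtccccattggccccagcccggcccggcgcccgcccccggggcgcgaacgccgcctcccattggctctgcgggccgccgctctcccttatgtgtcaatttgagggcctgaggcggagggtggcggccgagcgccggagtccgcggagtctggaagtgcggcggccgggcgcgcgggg
MNT: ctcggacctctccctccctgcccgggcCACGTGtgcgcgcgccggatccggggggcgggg
MLX: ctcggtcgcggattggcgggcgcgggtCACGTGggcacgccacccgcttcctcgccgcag

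The E-box began 238 bases before the RefSeq start in MXD4, 193 before it in MNT and 50 before it in MLX. RFX proteins bind X-boxes, which are inverted repeats of a word close to GTTGCC. The word GTTGCC, on either strand, was in 12.2% of all promoters and in none of the 14 network promoters. The full X-box, searched as GTTGCC, then 0 to 3 bases, then GGNAAC, was in 0.544% of all promoters and in none of the 14. GTTGCTA was in 2.85% of all promoters and, among the network genes, in that of MXD4, where it began 230 bases before the start and thus next to the E-box. Its close relative GTTGCCA was in 4.08% of all promoters and in none of the 14. Both of these longer words were searched only after the MXD4 promoter had been read. The MXD4 promoter had a GC content of 72.3%, against a mean of 57.5%. These matches describe letters in a window and not bound sites.

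All 10 network genes had the same sign of response to Nutlin-3a in siControl and in siRFX7, in tables that share no library, and 6 were called in both. The same counts over all genes were not computed, so these are a description. The signs of MAX in both arms, and of MNT in siRFX7, rest on changes smaller than their SE. MXD1 and MXD4 rose most, MXD3 fell most, and the other 7 moved less, MGA the furthest of them at -0.30 in siControl. In siControl, 5 of 10 were called higher and 3 lower, while 18.3% of the 23353 genes tested were higher, 19.6% lower and 37.9% either. In siRFX7, 3 of 10 were called higher and 4 lower, beside 18.7%, 20.3% and 39.1% of 21382 genes. With siRFX7 over siControl under DMSO, 5 were called higher and 1 lower, beside 19.9% higher, 17.5% lower and 37.4% either of 19511 genes. Under Nutlin-3a, 4 were called higher and 2 lower, beside 17.2%, 15.4% and 32.6% of 20335 genes. MXD4, selected on its responses, is among those called higher with Nutlin-3a in both arms. It is also among those called lower with siRFX7 under Nutlin-3a. Its calls are a description, and the shares serve for the calls of the other genes only. The network genes are well expressed, with base means from 232 to 11476, and above a base mean of 100 the shares of all genes called in either direction were 56.3%, 56.3%, 49.7% and 45.3% in these 4 tables. In the same order, the shares called higher above that base mean were 24.7%, 24.8%, 27.1% and 24.6%, and those called lower 31.6%, 31.5%, 22.6% and 20.6%. MXD1, MXD3 and MLXIP were called in all 4 tables, MXD4 and MNT in 3, MYC, MAX, MXI1 and MGA in 2, and MLX in 1. The shares of all genes called in as many tables were not computed, so whether these numbers are unusual cannot be told. The comparisons share groups of libraries in pairs, as with the siControl DMSO libraries in the tables for Nutlin-3a in siControl and for siRFX7 under DMSO.

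**Figure D1:**
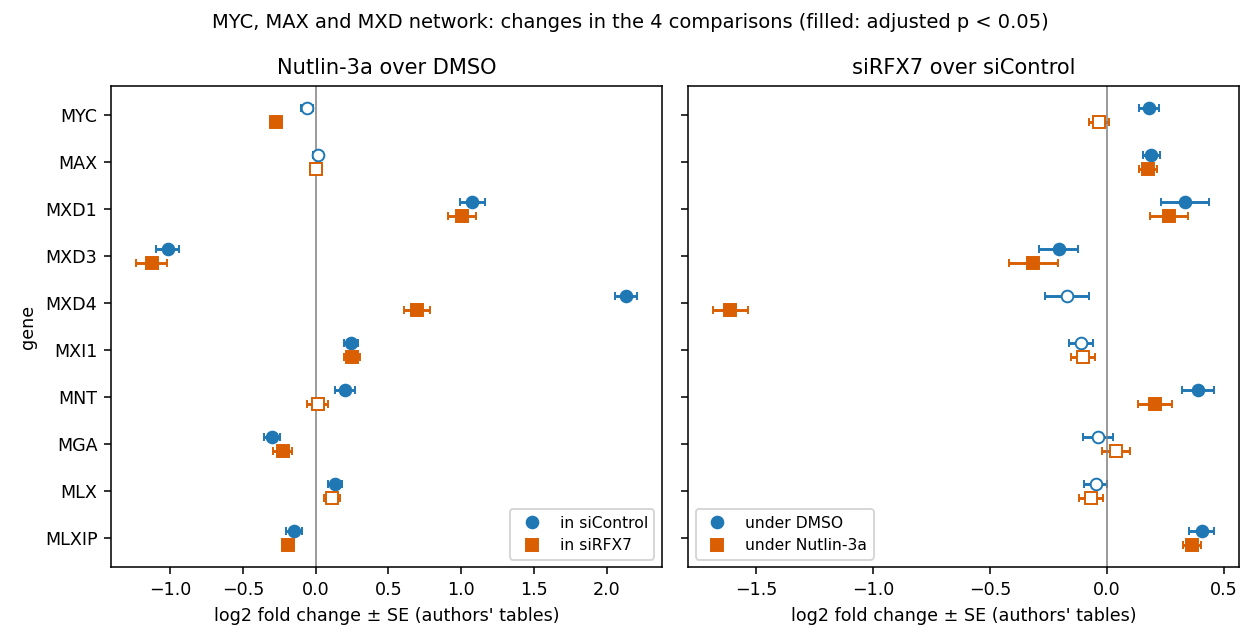
The log2 fold change ± SE of each network gene from the authors' deposited tables is plotted for Nutlin-3a over DMSO (left, circles for siControl and squares for siRFX7) and for siRFX7 over siControl (right, circles for DMSO and squares for Nutlin-3a), with filled symbols for an adjusted p under 0.05. MXD4 stands apart, at 2.13 and 0.69 on the left and at -0.17 and -1.61 on the right, while the symbols of the other genes lie within 0.22 of each other in either panel.

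MYC, the activator, was at a group mean of 11705 normalised counts in siControl with DMSO, 11247 in siControl with Nutlin-3a, 13255 in siRFX7 with DMSO and 10973 in siRFX7 with Nutlin-3a, as computed from the authors' deposited tables. The siRFX7 DMSO group was thus the high one, and the other 3 were close to each other. With siRFX7 under DMSO, MYC (ENSG00000136997; chromosome 8, 127735434 to 127741434, plus strand in GENCODE 29 on GRCh38) was higher by 0.18 ± 0.04 (SE; adjusted p 0.000206, the authors' deposited table), or 1.13-fold. Under Nutlin-3a the knockdown difference was -0.035 ± 0.04 and was not called (adjusted p 0.58, the authors' deposited table). Nutlin-3a lowered MYC in siRFX7 by 0.27 ± 0.04, to 82.8% of the DMSO level (adjusted p 6.12e-09, the authors' deposited table). In siControl its change was -0.058 ± 0.04 (adjusted p 0.294, the authors' deposited table).

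MAX, the shared partner, did not pass the test for Nutlin-3a, at 0.016 ± 0.04 in siControl and 0.00 ± 0.04 in siRFX7 (the authors' deposited tables). Its group means were 4794 and 4849 normalised counts in siControl with DMSO and Nutlin-3a, and 5472 and 5473 in siRFX7. Both siRFX7 groups were above both siControl groups. The knockdown difference was 0.19 ± 0.04 under DMSO (adjusted p 3.63e-06) and 0.17 ± 0.04 under Nutlin-3a (adjusted p 5.16e-05; the authors' deposited tables). MAX lies on chromosome 14 (65006174 to 65102695, minus strand) and shares 184 exon bases with the antisense gene AL139022.1, which had a base mean of 6.13 in the siControl table.

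The MYC paralogues were far lower. MYCL had a base mean of 138 in the authors' deposited table for Nutlin-3a in siControl, and MYCN one of 11.4. MYCL fell with siRFX7, by 0.74 ± 0.15 under DMSO (adjusted p 1.05e-05) and by 0.58 ± 0.15 under Nutlin-3a (adjusted p 0.00089; the authors' deposited tables). Its group means were 135 and 140 normalised counts in the siControl groups and 81.2 and 94.7 in the siRFX7 groups. MYCN fell with Nutlin-3a on few reads, with log2 fold changes of -1.77 ± 0.50 in siControl and -2.35 ± 0.55 in siRFX7 (the authors' deposited tables). PVT1, the long noncoding RNA gene beside MYC, rose with Nutlin-3a by 0.50 ± 0.05 in siControl and 0.44 ± 0.05 in siRFX7 (the authors' deposited tables), against -0.058 and -0.27 for MYC itself.

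Among the repressors that pair with MAX, MXD1 rose with Nutlin-3a in both siRNA arms. MXD1 is known as the MXD protein of differentiating cells. Its group mean went from 228 to 482 normalised counts in siControl and from 287 to 577 in siRFX7. The 2 Nutlin-3a groups lay above the 2 DMSO groups. The changes were 1.08 ± 0.09 (adjusted p 2.84e-35) and 1.01 ± 0.10 (adjusted p 1.76e-23) in the authors' deposited tables, or 2.11-fold and 2.01-fold. MXD1 was also higher with siRFX7, by 0.33 ± 0.10 under DMSO (adjusted p 0.00496) and 0.26 ± 0.08 under Nutlin-3a (adjusted p 0.00489; the authors' deposited tables). The gene (chromosome 2, 69897688 to 69942945, plus strand) shares 237 exon bases with SNRNP27 on the same strand, a gene with a base mean of 1104 in the siControl table. SNRNP27 was at 0.29 and 0.21 with siRFX7 under DMSO and Nutlin-3a, close to MXD1, but at 0.015 and -0.070 with Nutlin-3a in siControl and siRFX7 (the authors' deposited tables). Its part in the MXD1 values was not tested.

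MXD3 moved the other way. It is the MXD gene known for expression in cycling cells, in S phase. Its group mean went from 630 to 311 normalised counts with Nutlin-3a in siControl and from 543 to 249 in siRFX7, so the DMSO groups were the high ones. Nutlin-3a left 49.4% of the DMSO level in siControl (-1.02 ± 0.08, adjusted p 3.27e-36) and 45.8% in siRFX7 (-1.13 ± 0.11, adjusted p 1.42e-24; the authors' deposited tables). With siRFX7, MXD3 was lower by 0.21 ± 0.08 under DMSO (adjusted p 0.0356) and by 0.32 ± 0.10 under Nutlin-3a (adjusted p 0.0099; the authors' deposited tables). MXD3 (chromosome 5, 177301461 to 177312757, minus strand) shares 926 exon bases with RAB24 on the same strand and 1158 with PRELID1 on the opposite strand. RAB24 had a base mean of 63.2 in the siControl table. It was at -0.55 and -0.77 with siRFX7 under DMSO and Nutlin-3a, the direction of MXD3. With Nutlin-3a it was at 0.049 in siControl and -0.19 in siRFX7 (the authors' deposited tables). Its part in the MXD3 values was not tested. PRELID1, with a base mean of 6173, fell by 0.37 and 0.44 with Nutlin-3a, per the authors' deposited tables. The counting strand was not given in the sources used here, so reads of such partners cannot be told apart from those of MXD3.

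MXD4 showed the widest range of the network. Its group mean was 397 normalised counts in siControl with DMSO, 1742 in siControl with Nutlin-3a, 352 in siRFX7 with DMSO and 570 in siRFX7 with Nutlin-3a. The siControl Nutlin-3a group was thus more than 3 times any other. Nutlin-3a raised MXD4 by 2.13 ± 0.08 in siControl, or 4.38-fold, and by 0.69 ± 0.09 in siRFX7, or 1.62-fold, in the authors' deposited tables. The rise in siControl was the 289th highest of 23353 genes. Under Nutlin-3a, siRFX7 left 32.8% of the siControl level (-1.61 ± 0.07, the authors' deposited table), the 46th lowest of 20335 log2 fold changes. Under DMSO the knockdown difference was -0.17 ± 0.09, with an interval of -0.36 to 0.011 (adjusted p 0.14, the authors' deposited table). MXD4 lies on chromosome 4 (2247432 to 2262294, minus strand) and shares 80 exon bases with the microRNA gene MIR4800, which was in no table. The E-box and the word GTTGCTA printed above lie upstream of this GENCODE gene, at 2262342 to 2262347 and 2262333 to 2262339.

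MXI1, the fourth MXD gene, rose slightly with Nutlin-3a, by 0.24 ± 0.05 in siControl (adjusted p 5.95e-06) and 0.25 ± 0.05 in siRFX7 (adjusted p 1.27e-05; the authors' deposited tables). Its group means were 1290 and 1527 normalised counts in siControl and 1194 and 1421 in siRFX7. The knockdown differences of -0.11 ± 0.05 under DMSO and -0.10 ± 0.05 under Nutlin-3a were not called (adjusted p 0.0718 and 0.113, the authors' deposited tables). The 4 MXD genes thus did not move as a block: with Nutlin-3a MXD1, MXD4 and MXI1 rose and MXD3 fell.

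MNT, a repressor that pairs with MAX or MLX and is present in most cells, was higher with siRFX7. Its group means were 1103 normalised counts in siControl with DMSO, 1268 in siControl with Nutlin-3a, 1446 in siRFX7 with DMSO and 1462 in siRFX7 with Nutlin-3a. The siControl DMSO group was the lowest. The knockdown difference was 0.39 ± 0.07 under DMSO (adjusted p 8.24e-08) and 0.20 ± 0.07 under Nutlin-3a (adjusted p 0.021; the authors' deposited tables). Nutlin-3a raised MNT in siControl by 0.20 ± 0.07 (adjusted p 0.0123, the authors' deposited table), while in siRFX7 the change was 0.016 ± 0.07 (adjusted p 0.899, the authors' deposited table). MNT (chromosome 17, 2384060 to 2401118, minus strand) shares 1065 exon bases with the antisense gene AC006435.1, which was in no table.

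MGA, the large MAX partner with its own T-box DNA-binding domain, fell with Nutlin-3a. Its group means were 4756 and 4640 normalised counts under DMSO and 3862 and 3966 under Nutlin-3a, for siControl and siRFX7 in turn. The fall was 0.30 ± 0.06 in siControl (adjusted p 8.5e-07) and 0.23 ± 0.07 in siRFX7 (adjusted p 0.00222; the authors' deposited tables). The knockdown differences of MGA (chromosome 15, 41621224 to 41773081, plus strand), -0.038 ± 0.06 under DMSO and 0.038 ± 0.06 under Nutlin-3a, were not called. Of 9 partners of MGA in PRC1.6, 3 were called lower with Nutlin-3a in siControl and 5 in siRFX7, and none higher, beside 31.6% and 31.5% of all genes above a base mean of 100 called lower. The count in siControl was thus near that share. TFDP1, the partner of E2F6, fell by 0.50 ± 0.04 and 0.54 ± 0.04, and PCGF6 by 0.43 ± 0.08 and 0.57 ± 0.10, in the authors' deposited tables. RING1, a ubiquitin ligase of the complex, was lower with siRFX7, at -0.85 ± 0.05 under DMSO and -0.72 ± 0.06 under Nutlin-3a (the authors' deposited tables). TFDP1 was higher, at 0.30 ± 0.04 and 0.27 ± 0.04 in the same authors' deposited tables. In all, 3 of the 9 were called higher and 2 lower with siRFX7 under DMSO, and 2 and 1 under Nutlin-3a, beside the shares of all genes above a base mean of 100 (27.1% and 22.6%, and 24.6% and 20.6%).

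MLXIP had the highest log2 fold change of the network with siRFX7 under both treatments, just above MNT under DMSO. Its group means were 5764 and 5202 normalised counts in siControl with DMSO and Nutlin-3a, and 7629 and 6687 in siRFX7. Both siRFX7 groups were above both siControl groups. The knockdown difference was 0.40 ± 0.05 under DMSO (adjusted p 9.18e-13) and 0.36 ± 0.04 under Nutlin-3a (adjusted p 1.27e-18) in the authors' deposited tables, or 1.32-fold and 1.29-fold. Nutlin-3a lowered MLXIP by 0.15 ± 0.05 in siControl (adjusted p 0.0152) and by 0.19 ± 0.04 in siRFX7 (adjusted p 1.81e-05; the authors' deposited tables). The gene lies on chromosome 12 (122078722 to 122147347, plus strand).

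MLX, the partner of MLXIP, had its 4 group means near each other, at 1490 and 1636 normalised counts in siControl with DMSO and Nutlin-3a and at 1440 and 1557 in siRFX7. It was called in 1 table, for Nutlin-3a in siControl, with a rise of 0.13 ± 0.05 (adjusted p 0.0142, the authors' deposited table). MLX (chromosome 17, 42567068 to 42573239, plus strand) shares 770 exon bases with PSMC3IP on the opposite strand, a gene that fell by 0.93 and 1.13 with Nutlin-3a, per the authors' deposited tables. The paralogue of MLXIP, MLXIPL, had a base mean of 6.86 in the siControl table.

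TXNIP and ARRDC4, arrestin-like regulators of glucose uptake, are established targets of MLXIP with MLX. TXNIP rose with Nutlin-3a in siControl by 1.01 ± 0.13 (adjusted p 2.09e-13), while in siRFX7 the change was 0.28 ± 0.18 (adjusted p 0.229; the authors' deposited tables). With siRFX7, TXNIP was lower by 0.48 ± 0.17 under DMSO (adjusted p 0.016) and by 1.21 ± 0.14 under Nutlin-3a (adjusted p 4.44e-16; the authors' deposited tables). ARRDC4 rose with Nutlin-3a by 1.102 ± 0.13 and 0.73 ± 0.13 and was higher with siRFX7 under DMSO, by 0.54 ± 0.14, in the authors' deposited tables. Under Nutlin-3a its knockdown difference was 0.17 ± 0.12 and was not called (adjusted p 0.288, the authors' deposited table). The targets were thus called in opposite directions with siRFX7 under DMSO, where MLXIP was higher. Their base means in that comparison were only 86.0 and 108, and neither was called there with a Bonferroni adjustment.

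Whether the Nutlin-3a response of each gene depended on RFX7 was addressed by the difference of its log2 fold changes, siRFX7 minus siControl, with a two-sided normal test and Benjamini-Hochberg adjustment over 21339 genes. Of the 10 network genes, 2 were called, both with a negative difference. Of all genes, 0.937% were called, 0.764% with a negative and 0.173% with a positive difference. Above a base mean of 100, where all 10 lie, these shares were 1.45%, 1.17% and 0.28%. These 2 were MXD4 and MYC. In siRFX7, MXD4 rose less than in siControl, whereas MYC fell more, at -0.27 against -0.058. The change of MYC in siControl was not called. Since MXD4 was selected on this difference, only the call of MYC is read beside these shares. MXD4 differed by -1.44 ± 0.12 (95% interval -1.67 to -1.21), the 110th lowest of all genes. Since this value was known when the set was drawn up, it is a description. For MYC the difference was -0.21 ± 0.06 (95% interval -0.33 to -0.097, adjusted p 0.041). MYC was no longer called with a Bonferroni adjustment or when a log2 size of at least 0.25 was required. The next in size was MNT, at -0.19 ± 0.10 (95% interval -0.38 to 0.010, adjusted p 0.856). For the other 7 genes the differences ran from -0.11 (MXD3) to 0.074 (MGA), with 95% intervals that all included 0. The widest were those of MXD3 (-0.37 to 0.15) and MXD1 (-0.33 to 0.18), and the narrowest was that of MAX (-0.12 to 0.090). In the MYC family, MYCL had a difference of 0.16 ± 0.22 (adjusted p 0.99996). TXNIP, at -0.73 ± 0.22, was not called (adjusted p 0.0979), nor was ARRDC4, at -0.37 ± 0.18 (adjusted p 0.744).

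**Figure D2:**
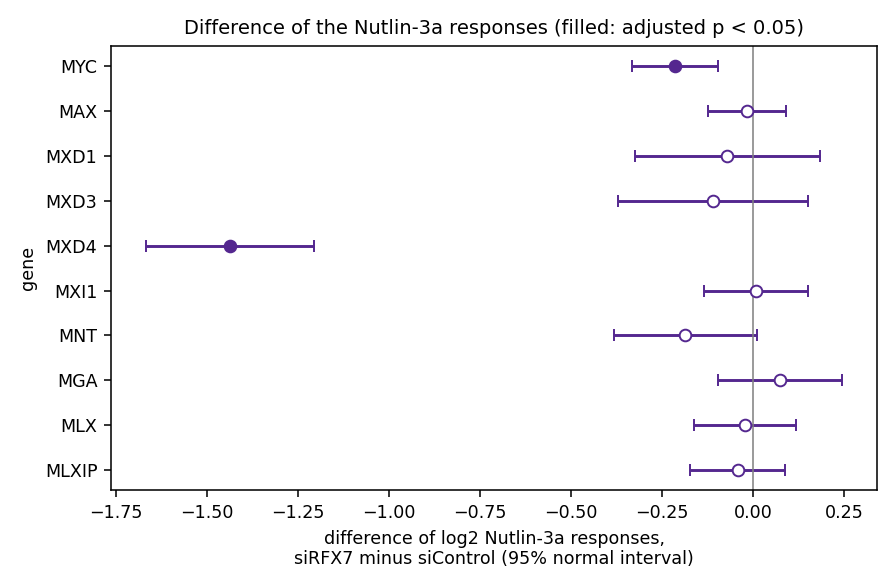
The difference of the log2 Nutlin-3a responses, siRFX7 minus siControl, is plotted for each network gene with its 95% normal interval, with filled symbols for an adjusted p under 0.05. The intervals of MXD4 (-1.67 to -1.21) and MYC (-0.33 to -0.097) lie below 0, and those of the other 8 genes include 0.

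**Figure D3:**
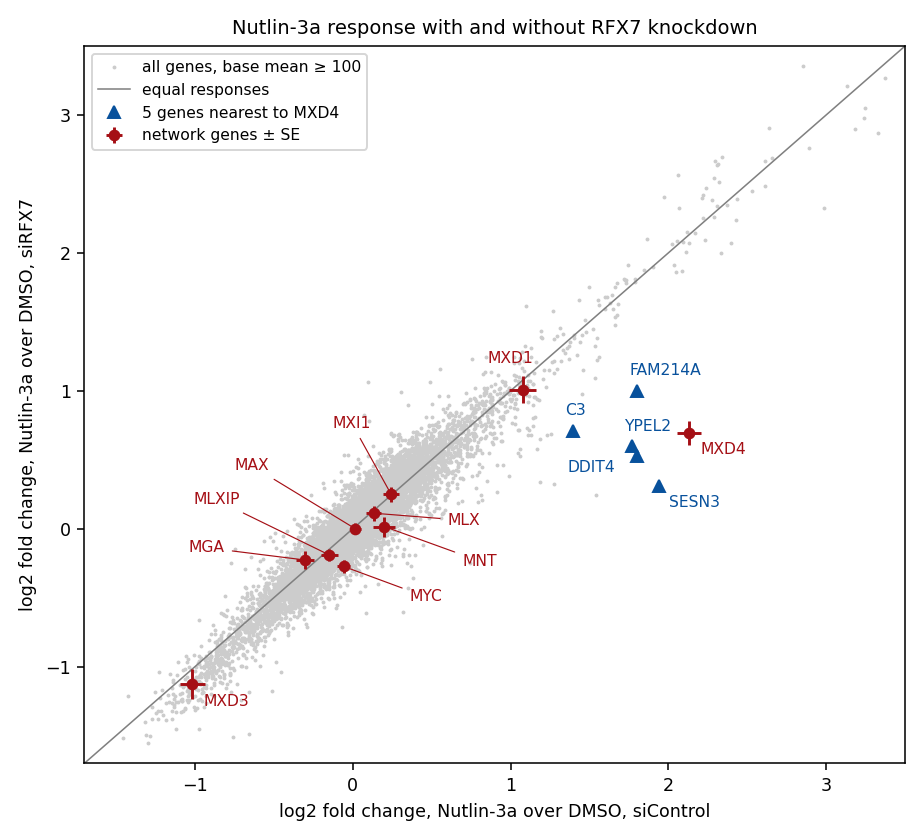
The log2 fold change with Nutlin-3a in siRFX7 is plotted against that in siControl, for all genes above a base mean of 100 (grey points), the network genes with their SE (red circles) and the 5 genes nearest to MXD4 (blue triangles). MXD1 and MXD3 lie near the line of equal responses, at 1.08 and 1.01 and at -1.02 and -1.13, and MXD4 lies below it, at 2.13 and 0.69.

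Levels can be compared between genes only per transcript length, for which the normalised counts were divided by the length of the longest coding transcript in kilobases. On this scale MYC ranked first, at 4947 per kilobase in siControl with DMSO, and MAX second, at 1520, in all 4 groups and also with the shortest coding transcript. MLXIP followed at 684, MLX at 576, MXI1 at 372, MGA at 329, MXD3 at 277, MNT at 221, MXD4 at 97.9 and MXD1 at 40.9, all in siControl with DMSO. MXD1 was last in every group at either length. MXD4 was ninth under DMSO in both siRNA arms, sixth in siControl with Nutlin-3a and eighth in siRFX7 with Nutlin-3a, and eighth and ninth in the latter groups at the shortest length. At the shortest length in siControl with DMSO, MLX moved from rank 4 to rank 8, MNT from 8 to 5, MGA from 6 to 4 and MXI1 from 5 to 6. The shortest coding transcripts of MYC, MAX and MLXIP have 345, 330 and 805 bases, and the longest 2366, 3155 and 8427. Those of MXD1 have 5580 and 5587 bases, and MXD4 has a single one of 4056. Dividing by the short models raises MYC, MAX and MLXIP far more than MXD1 or MXD4, so ranks at the shortest length are no separate check. The order of these genes thus depends on the transcript, and no spread over libraries could be given for any level.

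Summed per kilobase at the longest length, the 4 MXD genes amounted to 15.9% of MYC in siControl with DMSO, 23.0% in siControl with Nutlin-3a, 12.9% in siRFX7 with DMSO and 16.5% in siRFX7 with Nutlin-3a. MXD4 made up 12.4% of this sum in siControl with DMSO and 39.3% with Nutlin-3a. In siRFX7 it made up 12.0% with DMSO and 18.4% with Nutlin-3a. MXD3 made up 35.2% of the sum with DMSO and 12.5% with Nutlin-3a in siControl, and 33.2% and 14.4% in siRFX7. MXI1 was the largest share in every group, from 40.3% to 53.7%, and in siControl with Nutlin-3a it was close to MXD4. The shares depend on the transcript: at the shortest length MXD4 made up 4.19% and 16.4% of the sum in siControl with DMSO and Nutlin-3a and 4.08% and 6.54% in siRFX7, and MXI1 from 62.8% to 75.2%. At both lengths the MXD4 share was highest in siControl with Nutlin-3a. At the shortest length the sum was 6.89%, 8.02%, 5.54% and 6.76% of MYC in the same order of groups, so siControl with Nutlin-3a was again the highest and siRFX7 with DMSO the lowest, while the other 2 groups changed places. These are RNA levels of the whole culture, and protein was not measured.

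**Figure D4:**
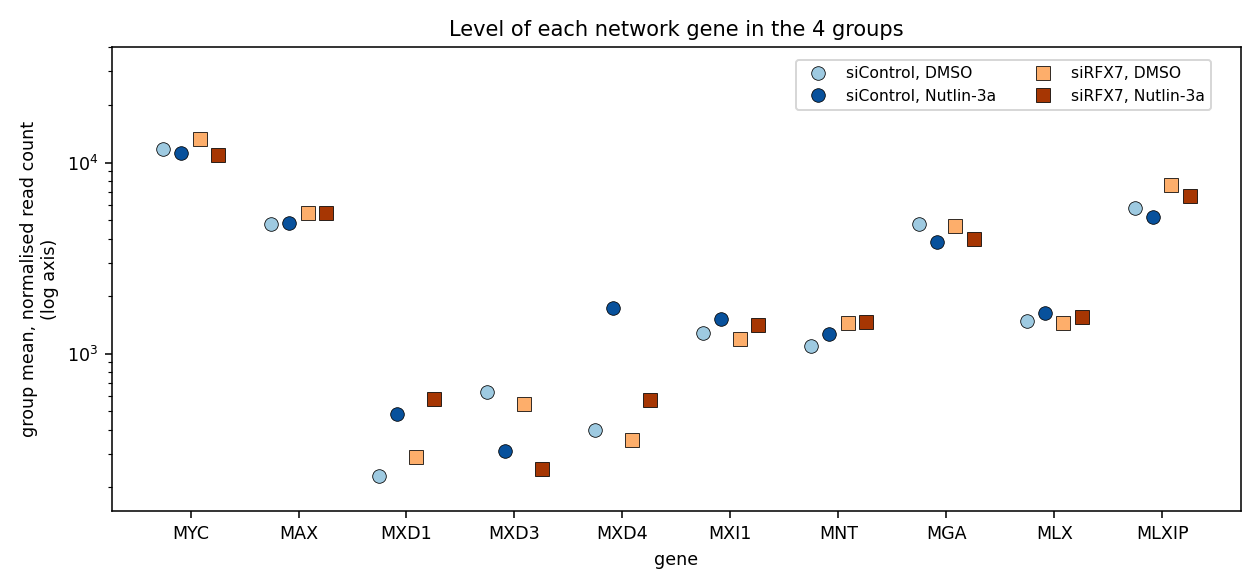
Group means in normalised read counts (log axis) are plotted for each network gene, with circles for siControl, squares for siRFX7, light symbols for DMSO and dark symbols for Nutlin-3a. Heights compare groups within a gene and not genes with each other: for MXD4 the siControl Nutlin-3a group stands at 1742 and the other 3 groups between 352 and 570.

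Lists of genes around MYC were described by counts and medians. Of 35 genes widely held to be activated by MYC, 28 were called lower and 1 higher with Nutlin-3a in siControl, with a median of -0.27, beside a median of 0.010 over all genes. Of all genes, 19.6% were called lower there, and 31.6% of those above a base mean of 100. In siRFX7, 31 were called lower and none higher, with a median of -0.298, beside 20.3% of all genes called lower and 31.5% above that base mean. Lowest among those called in siControl were TFRC, the transferrin receptor (-0.55 ± 0.05), and NOP58, a nucleolar protein (-0.45 ± 0.05), while NME1 was called higher (0.18 ± 0.04), in the authors' deposited table. In siRFX7 the lowest were RCC1 (-0.56 ± 0.04) and NOLC1 (-0.51 ± 0.04), in the authors' deposited table. With siRFX7 over siControl the list was split, with 13 higher and 8 lower under DMSO (median 0.056) and 6 higher and 10 lower under Nutlin-3a (median 0.0048). Above a base mean of 100, 27.1% of all genes were called higher and 22.6% lower under DMSO, and 24.6% and 20.6% under Nutlin-3a. TFRC was the extreme, at -1.25 ± 0.04 and -1.11 ± 0.05, and the amino acid transporter SLC7A5 rose, by 0.38 ± 0.04 and 0.48 ± 0.04, as did RRP12, by 0.38 ± 0.04 and 0.35 ± 0.04, in the authors' deposited tables. No gene of this list was called for the difference of the responses by the normal test, and 3 had an unadjusted p under 0.05.

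Genes held to be repressed by MYC did not move as a group. Of 8 in the siControl table, 4 were called higher and 2 lower with Nutlin-3a (median 0.35), and of 7 in the siRFX7 table, 3 and 2 (median 0.12). The shares of all genes were 18.3% higher and 19.6% lower in siControl and 18.7% and 20.3% in siRFX7. The rise included CDKN1A and GADD45A (0.75 ± 0.05 and 0.59 ± 0.05), both also established p53 targets, while CDKN1B fell by 0.45 ± 0.05 and 0.65 ± 0.05, in the authors' deposited tables. For the difference of the responses, CDKN1A was lower in siRFX7, by 0.26 ± 0.05 (adjusted p 0.000305), and NDRG1 higher, by 0.29 ± 0.06 (adjusted p 0.000654).

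The cofactor list joins corepressors of MXD proteins with coactivators of MYC. Of its 14 genes, 11 were called lower and 1 higher with Nutlin-3a in siControl (median -0.21) and 9 and 1 in siRFX7 (median -0.21). Of all genes above a base mean of 100, 31.6% and 31.5% were called lower in these tables, and 24.7% and 24.8% higher. WDR5, which helps MYC onto chromatin, fell by 0.42 ± 0.04 and 0.45 ± 0.04, the MXD corepressor SIN3A by 0.28 ± 0.04 and 0.37 ± 0.04, while its paralogue SIN3B rose by 0.11 ± 0.05 and 0.15 ± 0.05 (the authors' deposited tables). With siRFX7, SIN3B was higher by 0.26 ± 0.05 under DMSO and 0.30 ± 0.04 under Nutlin-3a, and WDR5 by 0.27 ± 0.04 and 0.23 ± 0.04, in the authors' deposited tables. In all, 5 of 14 were called higher and 2 lower with siRFX7 under DMSO, and 5 and 3 under Nutlin-3a, beside the 27.1% and 22.6%, and 24.6% and 20.6%, of all genes above a base mean of 100.

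Of 11 genes that act on the stability of MYC protein, 7 were called lower and 1 higher with Nutlin-3a in siControl, and 6 and 1 in siRFX7. Above a base mean of 100, 31.6% of all genes were lower and 24.7% higher in siControl, and 31.5% and 24.8% in siRFX7. The gene that rose was FBXW7, the ubiquitin ligase subunit that marks phosphorylated MYC for degradation, by 0.77 ± 0.06 and 0.69 ± 0.05 (the authors' deposited tables). AURKA, a kinase that protects MYC proteins from FBXW7, fell by 0.83 ± 0.04 and 1.03 ± 0.05, and SKP2, another ubiquitin ligase subunit for MYC, by 0.82 ± 0.05 and 0.62 ± 0.06, in the authors' deposited tables. With siRFX7, 5 were called higher and 1 lower under DMSO, and 3 and 2 under Nutlin-3a, beside 27.1% and 22.6%, and 24.6% and 20.6%, of all genes above that base mean. PPP2R1A, a scaffold of the phosphatase PP2A, rose by 0.34 ± 0.04 and 0.21 ± 0.06 (the authors' deposited tables). For the difference of the responses, no gene of the turnover, cofactor or PRC1.6 lists was called by the normal test, and 2, 0 and 1 had an unadjusted p under 0.05.

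**Figure D5:**
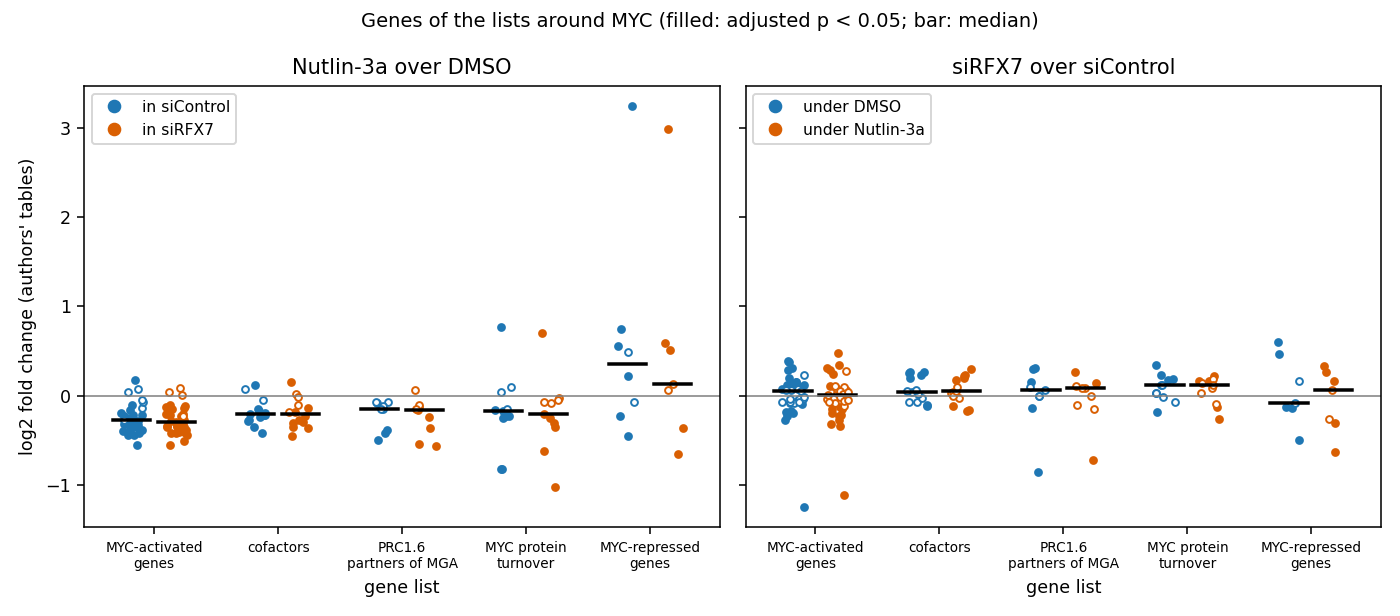
Each point is the log2 fold change of a gene of 5 lists around MYC in the authors' deposited tables, for Nutlin-3a over DMSO (left) and siRFX7 over siControl (right), with filled points for an adjusted p under 0.05 and a bar at the median. The MYC-activated genes have medians of -0.27 and -0.298 on the left and of 0.056 and 0.0048 on the right.

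The genes most like MXD4 and MYC were found by the Euclidean distance over 3 log2 fold changes (Nutlin-3a in siControl, Nutlin-3a in siRFX7 and siRFX7 under DMSO), among 12177 genes. For MXD4 these were YPEL2 (distance 0.56), SESN3 (0.60), FAM214A (0.69), C3 (0.74) and DDIT4 (0.77). SESN3, a sestrin that restrains mTORC1, rose with Nutlin-3a by 1.94 ± 0.08 in siControl and 0.31 ± 0.11 in siRFX7 (the authors' deposited tables). DDIT4, another inhibitor of mTORC1, rose by 1.804 ± 0.07 and 0.52 ± 0.07 (the authors' deposited tables). YPEL2 was at 1.77 ± 0.07 and 0.60 ± 0.08 (the same authors' deposited tables). C3 and MXD4 had negative knockdown differences under DMSO (-0.18 ± 0.13 and -0.17 ± 0.09), whereas YPEL2, SESN3, FAM214A and DDIT4 had positive ones, from 0.24 to 0.50, in the authors' deposited table. The neighbours of MYC were closer, and with small changes: RCAN1 (distance 0.021), PHBP3 (0.032), IMPDH1P6 (0.039), NLGN1 (0.041) and ZSCAN22 (0.042). Each of these distances is below the SE of every log2 fold change of that neighbour, so which genes are nearest to MYC is uncertain. PHBP3 and IMPDH1P6 are processed pseudogenes and may take reads of the genes they derive from, so their values are uncertain. RCAN1 had changes of -0.040 ± 0.05, -0.28 ± 0.06 and 0.17 ± 0.05 in these comparisons in the authors' deposited tables, and a difference of responses of -0.24 ± 0.08 that was not called (adjusted p 0.18).

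Short words in the 3′ untranslated regions were counted because an earlier scan of these data had linked them to the siRFX7 changes, so their shares are not independent evidence. The scan was not repeated here, and the link was not tested. The heptamer GTATCTA, which that scan found in genes lower with siRFX7, was in 8.33% of 14823 coding genes and, among the network genes, in MXD1, with 2 copies. MXD1 was higher with siRFX7. The hexamer GACGTA, found in genes higher with siRFX7, was in 5.03% of coding genes and, in the network, in MNT, with 1 copy, which was also higher with siRFX7. MYC, MAX, MXD3, MXD4, MXI1, MGA, MLX and MLXIP carried neither word.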

How the data were processed

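Values came from 4 deposited tables, each the authors' comparison of 2 groups of 4 libraries. Libraries came from a stranded poly(A) kit, per the labels' protocols. The submitters' processing notes name bcl2fastq 2.19.1.403, Trimmomatic 0.39, FastQC 0.11.9, cutadapt 2.10, SAMtools 1.10, Picard, featureCounts 1.6.5, DESeq2 1.20.0 and hg38. The aligner, annotation and counting strand are not given in the sources used here. The base mean, a signal, is the authors' mean of normalised counts over a comparison. The log2 fold changes with their SE, the Wald score and the p-values, raw and Benjamini-Hochberg adjusted, were used as deposited by the authors.

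The sign of each table was set from RFX7, CDKN1A and MDM2. Over 19344 genes the 4 tables closed on each other with an SD of 0.0029 (log2), against 0.514 with tables inverted.

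The difference of the Nutlin-3a responses used SE added in quadrature. Group means were computed from base mean and fold change, put on the scale of the siControl table with factors from 1.11 to 1.32, and each was obtained from 2 tables that agreed within 0.0041 (log2). Positions and lengths came from GENCODE 29 (GRCh38), which held 99.85% of 23396 gene identifiers. Tools were Python 3.11.15, pandas 2.3.3, numpy 2.4.6, scipy 1.17.1 and matplotlib 3.10.9.

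The network genes and all lists were chosen with earlier results of these data known. Beside the network genes and checks, the text names up to 2 genes at each end of a list among those called, and the 5 genes nearest to MXD4 and MYC above a base mean of 100 in all tables. SIN3A for Nutlin-3a in siControl, SIN3B for siRFX7 under DMSO, MYCN, MYCL, PVT1, MLXIPL, NDRG1, RCAN1's values and the genes that share exons were named beyond this, after their values were seen. Alternatives were a size of at least 0.25, a base mean of at least 100, centring on the median, Bonferroni adjustment, the other pair of tables and the shortest transcript.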

Additional observations from a re-analysis of the deposited data

Results flagged for a closer look

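Between siRFX7 and siControl, the Nutlin-3a response of 3 genes named, other than MXD4 and its nearest genes, differed at an adjusted p under 0.05, by the normal test of the difference over 21339 genes, of which 0.937% were called. These were MYC of the network (-0.21 ± 0.06 SE, adjusted p 0.041) and, in the list of genes held to be repressed by MYC, CDKN1A (-0.26 ± 0.05) and NDRG1 (0.29 ± 0.06). The network and its lists were chosen with earlier results of these data known, and NDRG1 was named after its values were seen. The values that follow are a description, with no test read from them. MXD4 (-1.44 ± 0.12) was selected on this difference. The 5 genes nearest to MXD4 were selected for responses like its own, so their differences follow largely from that choice: YPEL2 (-1.17 ± 0.10), SESN3 (-1.63 ± 0.14), FAM214A (-0.80 ± 0.16), C3 (-0.68 ± 0.17) and DDIT4 (-1.28 ± 0.10). All are log2 differences, siRFX7 minus siControl.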

How the results depend on the processing

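No value of a network gene changed sign under the alternatives. For siRFX7 under Nutlin-3a, the median of 0.0048 of the MYC-activated genes is smaller than the 0.011 that centring takes off. The sign of that median thus depends on the centring. Of the network genes called, requiring a log2 size of at least 0.25 left 4 of 8 for Nutlin-3a in siControl, 3 of 6 for siRFX7 under DMSO and 1 of 2 for the difference of the responses. With that size, the genes called over each table went from 7288 to 4501 for siRFX7 under DMSO and from 6625 to 4020 under Nutlin-3a. Bonferroni adjustment left 5, 3, 2 and 1 network genes for Nutlin-3a in siControl, siRFX7 under DMSO, siRFX7 under Nutlin-3a and the difference. Over all genes it left 4196 of 8853, 3922 of 8355, 2827 of 7288, 2419 of 6625 and 65 of 200, in the order Nutlin-3a in siControl, Nutlin-3a in siRFX7, siRFX7 under DMSO, siRFX7 under Nutlin-3a and the difference. MYC was the gene lost from the difference both times. Centring on the median ended the call of MLXIP for Nutlin-3a in siControl and brought those of MLX for Nutlin-3a in siRFX7 and MXI1 for siRFX7 under DMSO. A base mean of at least 100 and the other pair of tables changed no call of a network gene. Neither was an independent check: all network genes lie above that base mean, and the other pair holds the same libraries and the same contrast. The shortest transcript raised the median level per kilobase from 8.48 to 10.80 on the log2 scale. No paired analysis was possible because the tables hold no value of a single library, and leaving out single replicates was not run for the same reason. The tables also give no spread within a group for the levels.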
